A study of Mus musculus with 18 samples.

Results

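Chemokine ligands and chemokine receptors were followed in 2 tissues of mice with bone cancer. They were taken by symbol, as every gene whose name begins with Ccl, Cxcl, Cx3cl or Xcl and a number, and every gene named Ccr, Cxcr, Cx3cr, Xcr or Ackr with a number. The rule found 51 genes, 31 ligands and 20 receptors, among 15410 symbols in the 2 deposited tables. Of the 51 genes 50 were in the colon table, 48 in that of the dorsal horn and 47 in both.

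Chemokines are small secreted proteins that direct the movement of cells, mainly of leukocytes. They act through receptors of the G protein-coupled class, which signal through Gi proteins to phosphoinositide kinases, phospholipase C and small GTPases. The atypical receptors (3 here, Ackr2, Ackr3 and Ackr4) bind chemokines and remove them without this signal. Cx3cl1 and Cx3cr1 are known for the contact between neurons and microglia, and spinal chemokines such as Ccl2 for pain after injury. In the gut Ccl28 and Ccl25 are known for bringing lymphocytes, among them those that make mucosal antibody, and the ligands of Cxcr2 for bringing neutrophils.

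All mice were wild type (WT in the labels), and each group had 3 libraries of colon and 3 of spinal dorsal horn, where sensory fibres enter the cord. Sham mice were given IgG, cancer mice bore the tumour and were given IgG, and nivolumab mice bore the tumour and were given nivolumab, an antibody raised against human PD-1. The sources used here do not give strain, age, sex, tumour cell, dose or time. Nothing says that the 3 libraries of a group are 3 animals, so the p-values measure the spread between libraries, which may be technical. Libraries of 1 group differed by more than counting noise, with a chi-square per degree of freedom of 9.62 to 41.1 in the dorsal horn and 71 to 208 in the colon. Values are CPM, counts scaled to the size of the library, listed for libraries 1, 2 and 3 of a group in that order. Adjusted p-values are from edgeR over all genes tested in a tissue, with a threshold of 0.05. A bulk level cannot tell fewer cells of a type from less RNA per cell.

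Library totals lay between 20896854 and 30803957 counts, at which 3 counts are 0.0950 to 0.149 CPM. The dorsal horn libraries held markers of central neurons (a summed level of 4655 to 5264 CPM) and the colon libraries those of colon epithelium (8204 to 15907 CPM, 6 of 7 markers in the table). Markers of dorsal root ganglion neurons (12 of 12 in the dorsal horn table) summed to 14.3, 13 and 373 CPM in sham, 15.2, 13.3 and 411 in cancer and 1234, 774 and 1416 in nivolumab. Libraries sham 3 and cancer 3 and all 3 nivolumab libraries thus stood apart from the other 4. Schwann cell markers were also high with nivolumab (637.9 to 838 CPM, against 104.7 to 628.7 in the other groups), and those of skeletal muscle reached 63.1 to 658 CPM with nivolumab, 116.1 in sham 3 and 202.7 in cancer 2. In the colon, cancer 3 had the lowest summed level of macrophage markers, 89.9 CPM against 216.7 to 385.7 in the other libraries. T and NK cell markers were near 0 in the dorsal horn, with a summed level of 1.63 to 7.15 CPM over 12 genes, and reached 45.1 to 218.1 CPM in the colon.

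The promoters of 4 of these genes are shown, and they differ in motifs of known chemokine regulators. Cxcr4 and Cxcl14 are the genes that differed between nivolumab and sham in the dorsal horn. Cxcl10 stands for the interferon-inducible ligands of Cxcr3, and Cxcl2 is a neutrophil attractant that was high in colon libraries rich in neutrophil markers. Neither Cxcl10 nor Cxcl2 passed in an edgeR contrast of groups. Ccl9 and Ccl25, which passed between nivolumab and cancer in the dorsal horn, are not shown. Each is the stretch of 250 bases before the RefSeq start site on GRCm38.p6, 5′ to 3′ on the strand of the gene, with motif matches in capitals. The motifs searched on both strands were an ISRE-like one, GAAANNGAAA, bound by interferon regulatory factors, a kB-like one, GGGANNNNCC, bound by NF-kB, and a GAS-like one, TTCNNNGAA, bound by STAT proteins.
Cxcr4 (chr1:128592300-128592549, minus strand): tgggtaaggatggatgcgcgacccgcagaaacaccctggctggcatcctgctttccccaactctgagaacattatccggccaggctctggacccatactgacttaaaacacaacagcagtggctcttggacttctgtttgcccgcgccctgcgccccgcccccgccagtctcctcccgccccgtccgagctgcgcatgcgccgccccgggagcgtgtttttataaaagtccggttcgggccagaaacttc
Cxcl14 (chr13:56296552-56296801, minus strand): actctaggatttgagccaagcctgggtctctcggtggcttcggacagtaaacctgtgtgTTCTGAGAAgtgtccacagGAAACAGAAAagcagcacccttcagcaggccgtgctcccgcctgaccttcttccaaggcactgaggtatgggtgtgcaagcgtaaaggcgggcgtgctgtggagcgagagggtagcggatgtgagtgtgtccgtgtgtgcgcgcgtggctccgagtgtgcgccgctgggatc
Cxcl10 (chr5:92348890-92349139, minus strand): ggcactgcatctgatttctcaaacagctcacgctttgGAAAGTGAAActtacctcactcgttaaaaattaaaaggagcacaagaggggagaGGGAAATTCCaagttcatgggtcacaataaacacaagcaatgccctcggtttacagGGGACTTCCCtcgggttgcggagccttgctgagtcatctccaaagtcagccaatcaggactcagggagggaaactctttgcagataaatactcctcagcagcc
Cxcl2 (chr5:90903649-90903898, plus strand): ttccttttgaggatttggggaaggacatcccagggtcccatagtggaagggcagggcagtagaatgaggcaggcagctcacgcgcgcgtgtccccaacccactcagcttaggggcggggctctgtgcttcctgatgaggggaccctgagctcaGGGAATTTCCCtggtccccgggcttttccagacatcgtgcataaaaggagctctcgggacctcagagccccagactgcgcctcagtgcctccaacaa

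The Cxcr4 window held no match. That of Cxcl14 held 1 GAS-like and 1 ISRE-like match, that of Cxcl10 held 1 ISRE-like and 2 kB-like matches, and that of Cxcl2 held 2 kB-like matches that overlap by all but 1 base. Of the 51 genes 37 had a promoter in the RefSeq table. The ISRE-like motif was in 3 of them (8.11%, Ccl19, Cxcl10 and Cxcl14) and in 2.47% of 12129 promoters of the same length. The kB-like motif was in 16 (43.2%, among them Cxcl1, Cxcl2, Cxcl3, Cxcl9, Cxcl10, Cxcl13, Ccl20 and Ccl22) against 22.1% of all promoters. The GAS-like motif was in 3 (8.11%, Ccl17, Cxcl14 and Ccr6) against 5.91%. A match is a description of these letters and not of binding.

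Many of these genes lie side by side, with 11 ligands on chromosome 11, 9 on chromosome 5 and 12 receptors on chromosome 9. The models of 15 of the 51 genes overlap another gene in the GENCODE annotation. The sources used here do not give the strand setting of the counting, so reads of overlapping genes cannot be told apart.

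The tissues of sham mice were compared to ask which of these genes each one holds. The colon held far more of most ligands and receptors, including the interferon-inducible ligands, those for T and B cells and those for monocytes. Those that passed as higher in the dorsal horn were 3, the ligand Cx3cl1 on neurons, its receptor Cx3cr1 on microglia, and Ccl17, a ligand for Ccr4. Of 42 genes tested 34 (81.0%) passed, 3 higher and 31 lower in the dorsal horn, against 75.2% of 14164 genes (37.0% higher and 38.2% lower). Their median log2 fold change was −3.94, against −0.04 over all genes tested.

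Cx3cl1 had 227 ± 30.9 CPM in the dorsal horn and 95.9 ± 12.8 in the colon (log2 fold change 1.24, SE 0.16, adjusted p = 4.24e-06). Cx3cr1 had 34.3 ± 15.9 CPM in the dorsal horn and 10.5 ± 2.55 in the colon (log2 fold change 1.71, SE 0.43, adjusted p = 0.00221). The pair thus ran in the same direction, opposite to most of the family. Ccl17 rested on low counts, with 0.415 ± 0.247 CPM in the dorsal horn and 0.055 ± 0.0953 in the colon (log2 fold change 2.75, SE 1.06, adjusted p = 0.0287). Cxcr2, the receptor of neutrophils, held 41 counts in the sham dorsal horn and 2 in the colon, a ratio of colon to dorsal horn of 0.0444 (95% counting interval 0.0052 to 0.171), and missed the threshold (log2 fold change 4.24, SE 1.86, adjusted p = 0.0505). Its dorsal horn counts came from sham 1 and sham 3. Values of this comparison come from 1 fit of all 18 libraries and differ slightly from those scaled within a tissue.

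Most of the genes that passed stood on the other side. Ccl6, a myeloid chemokine of mice, had 2.45 ± 0.384 CPM in the dorsal horn and 316 ± 54.8 in the colon, 128.4-fold higher in the colon by summed counts (log2 fold change −7.01, SE 0.37, adjusted p = 7.59e-10). Ccl28 had 2.31 ± 0.56 CPM in the dorsal horn and 143 ± 12.2 in the colon, 62.1-fold higher in the colon (log2 fold change −5.95, SE 0.36, adjusted p = 2.20e-09). Cxcl9, a ligand of Cxcr3, had 2 counts in the 3 sham dorsal horn libraries and 3250 in the colon, a ratio of 1479 (95% counting interval 409 to 12219). Cxcl13, which attracts B cells, had no count in the sham dorsal horn and 882 in the colon, at least 267.6-fold higher there against a floor of 3 counts over the group. Xcr1, the receptor of cross-presenting dendritic cells, and its ligand Xcl1 had no count there either and were at least 39.1-fold and 36.4-fold higher in the colon. Cxcl12, which retains stem cells and guides neurons, had 76.4 ± 12.8 CPM in the dorsal horn and 66.9 ± 10.3 in the colon and did not pass (log2 fold change 0.19, SE 0.41, adjusted p = 0.68). Ccl25, Cxcl14 and Ackr3 did not pass either, with log2 fold changes of −0.15, 0.97 and −0.90.

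**Figure D1:**
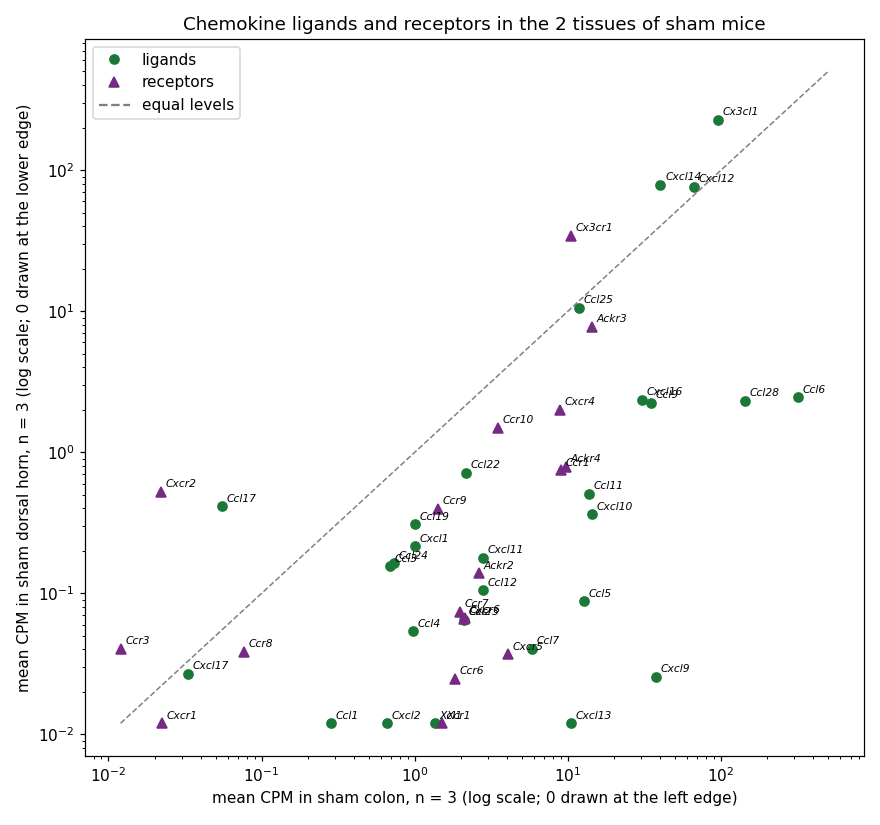
Mean CPM of 46 chemokine ligands (circles) and receptors (triangles) in 3 sham colon libraries (x axis, log scale) and 3 sham dorsal horn libraries (y axis, log scale). Points under the dashed line of equal levels are higher in the colon, and Cx3cl1, Cx3cr1, Cxcl14 and Cxcr2 are among those above it.

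Within the dorsal horn the levels were ordered per kilobase of exon over the 9 libraries. Cx3cl1 led the ligands at 56.7 (range 47.7 to 67.2) CPM per kilobase, before Cxcl14 at 36.4 (range 25.7 to 46) and Cxcl12 at 8.63 (range 4.02 to 10.6), and these 3 ranges did not overlap. Ccl25 at 1.58 and Ccl6 at 1.36 followed with overlapping ranges. Over the length of its longest coding transcript in place of the union of its exons, Ccl25 would be at 11.2. Cx3cr1 led the receptors at 6.89 (range 3.64 to 10.04), followed by Ackr3 at 2.49 (range 1.48 to 3.2) and Cxcr4 at 2.02 (range 0.894 to 3.45), the last pair with overlapping ranges. Ccr10 at 0.811 and Cxcr2 at 0.476 were lower, and the latter was highest in cancer 3. Of 48 genes 14 had a mean of at least 1 CPM in the dorsal horn and 5 at least 10 CPM.

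In the colon Ccl6 led at 122 (range 61.2 to 194) CPM per kilobase, above the whole range of Ccl28 at 26.2 (range 11.9 to 31.3). Cx3cl1 (24), Cxcl13 (21) and Ccl5 (19.4), a T and NK cell product, followed with ranges that overlapped that of Ccl28. Among receptors Cxcr4 (4.91), Ccr1 (3.54), Ackr3 (3.4), Ccr7 (1.83) and Cx3cr1 (1.74) were highest, and each range overlapped the next. Over the longest coding transcript Ccl5 would be the second ligand at 35.1 (range 7.65 to 84.6), before Ccl28 at 33.9, and Ackr4 at 3.29 would stand among the first 5 receptors in place of Cx3cr1. Of 50 genes 41 had a mean of at least 1 CPM and 15 at least 10 CPM.

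The 3 groups were then compared in the dorsal horn, where 24 of 48 genes (15 ligands and 9 receptors) passed the filter on low counts. Cxcr4 rose with nivolumab, to nearly the same level in all 3 libraries, and Ccl9 was low in cancer and higher again with nivolumab. Cxcl14 was lower with nivolumab than in sham, and Ccl25 was lower with nivolumab than in cancer. No member passed between cancer and sham. The other 24 genes were not tested, and 22 of them were under 1 CPM in every library.

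Between cancer and sham 0 of 24 genes passed the edgeR test, against 0.323% of 13609 genes. At an unadjusted p under 0.05 there were 5 (20.8% against 13.1%), and the groups did not overlap for 4 (16.7% against 16.8%). DESeq2 called 1 of 24, Ccl9 (2.69% of all genes), and so did a fit with the ganglion marker score as a covariate (2.65%). Between nivolumab and cancer 3 of 24 passed (12.5%), Ccl9 and Cxcr4 higher and Ccl25 lower, against 17.2% of all genes (8.63% higher and 8.6% lower). At an unadjusted p under 0.05 there were 10 (41.7% against 34.2%), and the groups did not overlap for 7 (29.2% against 40.1%). DESeq2 called 6 (23.5% of all genes) and the fit with the ganglion covariate 7 (23.1%), among them Ccl9 but in the latter neither Cxcr4 nor Ccl25. Between nivolumab and sham 2 of 24 passed (8.33%), Cxcr4 higher and Cxcl14 lower, against 8.51% of all genes (4.67% higher and 3.84% lower), and with the ganglion covariate 4 (15.7%). There were 6 at an unadjusted p under 0.05 (25% against 26.1%) and 8 without overlap (33.3% against 35.2%). The joint test of the 3 groups called 3 (12.5%), Cxcl14, Ccl9 and Cxcr4, against 13.9%, with 8 at an unadjusted p under 0.05 (33.3% against 32.3%), and the fit with the ganglion covariate called 7 (21.4%). Each share called in edgeR lay near or below that of all genes.

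The 2 comparisons that involve the cancer libraries share them, as those with sham share the sham libraries. Median log2 fold changes of the 24 genes were 0.06 for cancer against sham, 0.38 for nivolumab against cancer and 0.08 for nivolumab against sham, against 0.01, 0.00 and 0.00 over all genes tested. Of the 24 genes 17 had a positive log2 fold change for nivolumab against cancer (70.8%), against 50.0% of all genes.

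**Figure D2:**
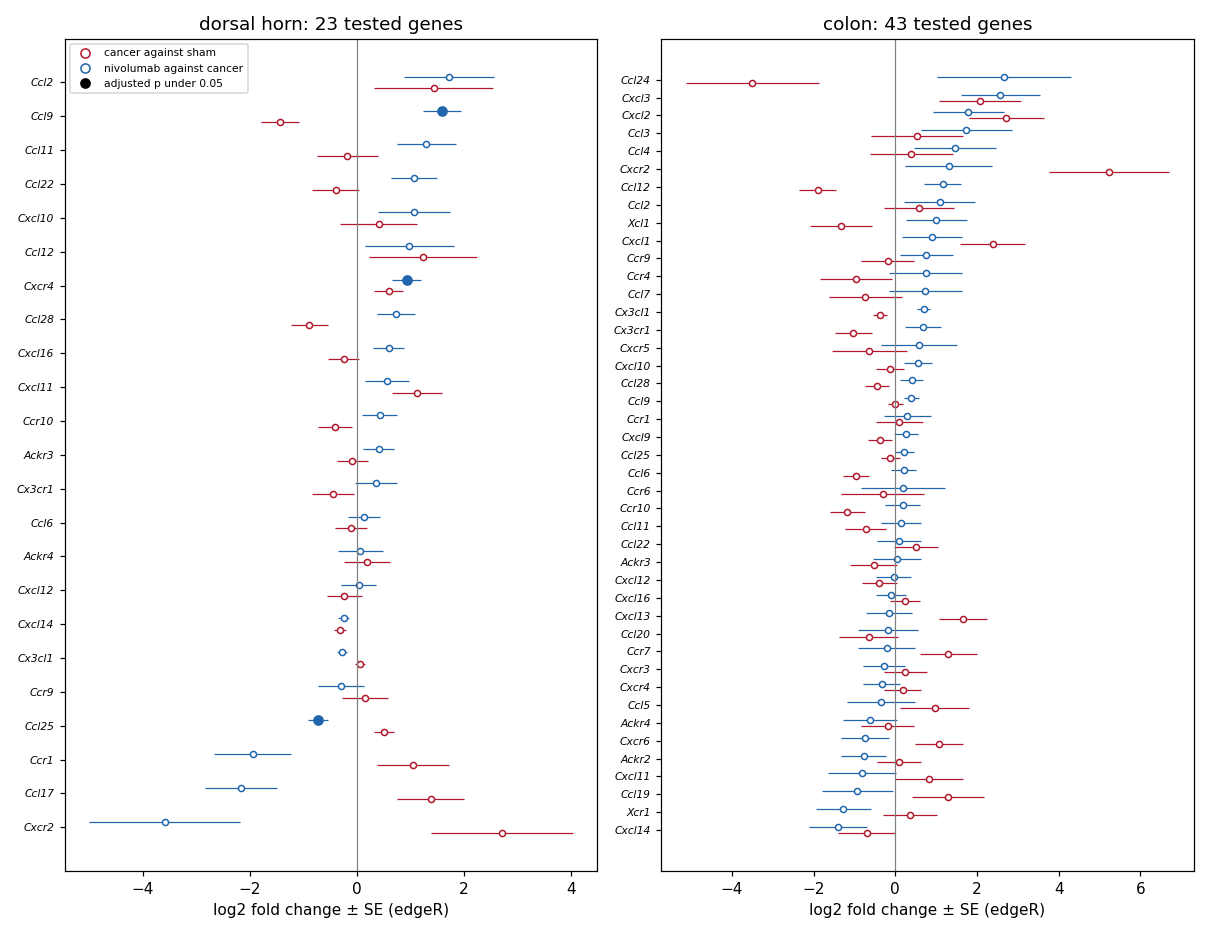
Log2 fold change ± SE (x axis) of 23 genes tested in the dorsal horn (left) and 43 in the colon (right), for cancer against sham (red) and nivolumab against cancer (blue). Filled points mark an adjusted p under 0.05, which only Ccl9, Cxcr4 and Ccl25 of the dorsal horn reached, for nivolumab against cancer.

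Cxcr4, the signalling receptor of Cxcl12, lies on chromosome 1, 128588199 to 128592293 (minus strand, GRCm38). It had 2.38, 1.62 and 2.12 CPM in sham, 4.12, 2.02 and 3.09 in cancer and 6.23, 5.24 and 6.07 in nivolumab. All 3 nivolumab libraries were above all 6 others, and cancer 2 was within the range of sham. The rise against sham was 2.86-fold, from 2.04 ± 0.39 CPM to 5.85 ± 0.529 (log2 fold change 1.52, SE 0.27, adjusted p = 0.0131), and that against cancer 1.9-fold from 3.08 ± 1.05 CPM (log2 fold change 0.92, SE 0.27, adjusted p = 0.0413). Between cancer and sham it did not pass (log2 fold change 0.59, SE 0.27, adjusted p = 0.394).

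With the ganglion marker score as a covariate Cxcr4 kept its rise against sham (adjusted p = 0.0349) and lost the call against cancer (log2 fold change 0.84, adjusted p = 0.139), at a fold close to the 0.92 without the covariate. The rise against cancer was lost in 9 of 16 alternatives, among them leaving out sham 1, cancer 2, cancer 3 or any 1 nivolumab library. Over all 16 alternatives the adjusted p was 0.012 to 0.139. The rise against sham was also lost without nivolumab 1 (adjusted p = 0.069) or nivolumab 3 (adjusted p = 0.0533). In sham 3 and cancer 3, the other libraries high in ganglion markers, Cxcr4 had 2.12 and 3.09 CPM, between the other values of their groups. Ganglion markers summed to 373 and 411 CPM in these libraries and to 774 to 1416 with nivolumab. Every nivolumab library was above every sham and cancer library in these markers, so the covariate cannot separate them from nivolumab. Their part in the level of Cxcr4 was not tested.

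Its ligand Cxcl12 had 84.4, 86.6 and 63 CPM in sham, 78.7, 32.8 and 86.6 in cancer and 63.1, 69.8 and 69.8 in nivolumab. The groups overlapped, with cancer 2 low, and neither contrast passed (log2 fold change −0.24, SE 0.33, adjusted p = 0.806 for cancer against sham, log2 fold change 0.03, SE 0.33, adjusted p = 0.954 for nivolumab against cancer). Ackr3, the atypical receptor that takes up Cxcl12, had 7.15, 10.6 and 5.91 CPM in sham, 10.7, 6.55 and 4.95 in cancer and 9.17, 10.7 and 9.44 in nivolumab. Its groups overlapped as well, and the log2 fold change for nivolumab against sham was 0.31 (SE 0.29, adjusted p = 0.536).

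Cxcl14, a chemokine of epithelia and of neurons, lies on chromosome 13, 56288643 to 56296551 (minus strand). It had 84.1, 82.9 and 74.9 CPM in sham, 61.5, 69.5 and 63.1 in cancer and 47, 52.6 and 63.5 in nivolumab. All sham libraries were above all others, while cancer and nivolumab overlapped. The 5 red blood cell markers in the table were also highest in sham, with a summed level of 1274, 738 and 1009 CPM. They had 150.4, 221 and 109.4 CPM in cancer and 219.5, 253 and 291 in nivolumab. Their lowest library was cancer 3, that of Cxcl14 was nivolumab 1, and their part in the Cxcl14 result was not tested. Of these 5 markers 4 were lower in cancer than in sham by the edgeR test and 5 with nivolumab, against 0.228% and 3.84% of all genes. Cxcl14 fell 1.48-fold, from 80.6 ± 5.02 CPM in sham to 54.4 ± 8.39 with nivolumab (log2 fold change −0.57, SE 0.11, adjusted p = 0.0147). For cancer against sham it did not pass (log2 fold change −0.32, SE 0.11, adjusted p = 0.248), nor did it pass for nivolumab against cancer (log2 fold change −0.25, SE 0.11, adjusted p = 0.131). The call for nivolumab against sham remained with the ganglion covariate (adjusted p = 0.0479) and was lost without sham 1 (adjusted p = 0.0624) or nivolumab 1 (adjusted p = 0.069). Ganglion markers were highest in the nivolumab libraries, so this covariate cannot separate them from nivolumab.

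**Figure D3:**
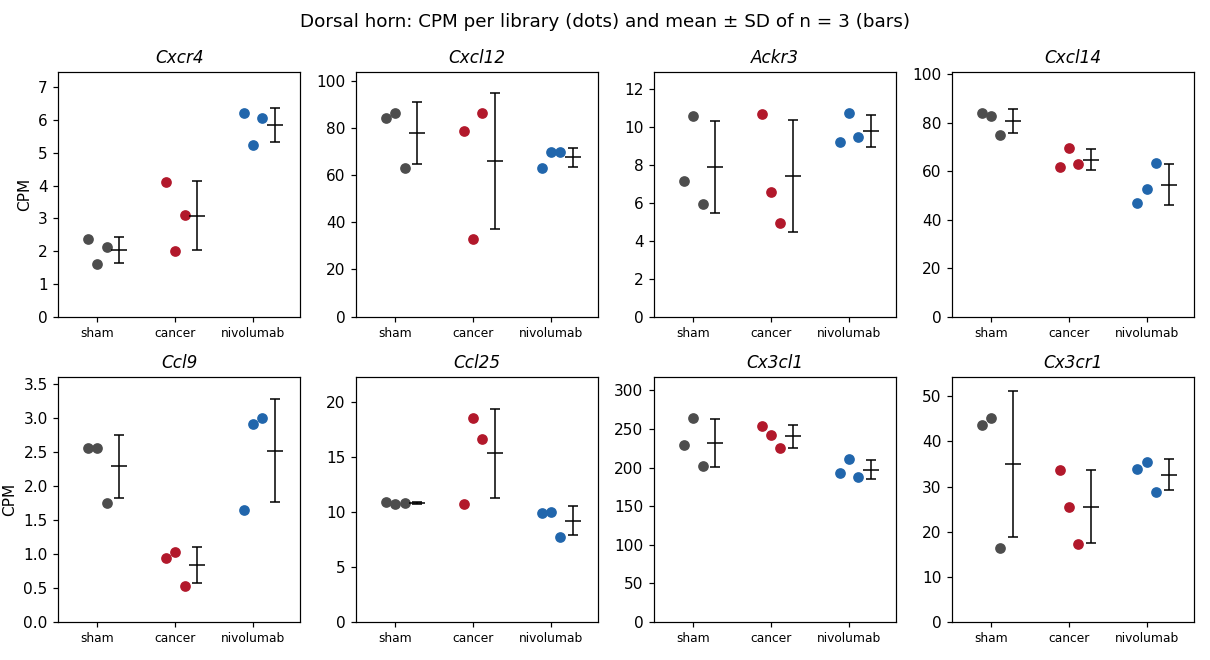
CPM of 8 genes in each dorsal horn library (dots, 3 per group) with the mean ± SD (bars, n = 3). Cxcr4 is high in all 3 nivolumab libraries, Cxcl14 is highest in sham, Ccl9 is low in cancer, and Ccl25 is high in cancer 2 and cancer 3.

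Ccl9, a ligand of Ccr1 made by macrophages and microglia, lies on chromosome 11, 83572919 to 83578636 (minus strand), beside its relative Ccl6. It had 2.55, 2.56 and 1.74 CPM in sham, 0.943, 1.03 and 0.53 in cancer and 1.64, 2.91 and 3.0 in nivolumab. All 3 cancer libraries were below all 6 others, and sham and nivolumab overlapped. It rose 3.0-fold between cancer and nivolumab, from 0.833 ± 0.266 CPM to 2.52 ± 0.759 (log2 fold change 1.58, SE 0.35, adjusted p = 0.0162). The difference between cancer and sham was nearly as large and missed the threshold (log2 fold change −1.44, SE 0.35, adjusted p = 0.133), though DESeq2 (adjusted p = 0.0199) and the fit with the ganglion covariate (adjusted p = 0.0329) called it. The rise with nivolumab passed in 15 of 16 alternatives and missed only without nivolumab 3 (adjusted p = 0.0631). Ccl6 had 2.06, 2.8 and 2.65 CPM in sham, 1.36, 2.59 and 3.0 in cancer and 2.6, 2.54 and 2.44 in nivolumab, and its groups overlapped (log2 fold change 0.13, SE 0.30, adjusted p = 0.788 for nivolumab against cancer).

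Ccr1, a receptor of Ccl9 and of Ccl3 and Ccl5 on myeloid cells, had 0.658, 0.907 and 0.72 CPM in sham, 0.384, 1.1 and 3.31 in cancer and 0.346, 0.24 and 0.629 in nivolumab. The value of cancer 3 was the highest, and the difference between nivolumab and cancer did not pass (log2 fold change −1.95, SE 0.71, adjusted p = 0.0856 for nivolumab against cancer). The 12 microglia and macrophage markers summed to 378, 394 and 294 CPM in sham, 296, 327 and 245 in cancer and 347, 369 and 306 in nivolumab, with overlapping groups. The 5 oligodendrocyte markers had the pattern of Ccl9, with a summed level of 55262, 55674 and 45933 CPM in sham, 30762, 35048 and 24565 in cancer and 42312, 47320.4 and 42681 in nivolumab. Of these 5 markers 2 were lower in cancer than in sham (0.228% of all genes) and 2 higher with nivolumab than in cancer (8.63%). The part of either marker list in the Ccl9 result was not tested.

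Ccl25, which guides T cells to the gut through Ccr9, lies on chromosome 8, 4325210 to 4360020 (plus strand). It had 10.9, 10.8 and 10.8 CPM in sham, 10.8, 18.6 and 16.7 in cancer and 9.95, 10.01 and 7.7 in nivolumab. Cancer 2 and cancer 3 were above all other libraries, cancer 1 was level with sham, and all nivolumab libraries were below all cancer and sham libraries. The same 2 cancer libraries had the highest summed levels of T and NK cell markers (7.15 and 6.4 CPM, against 1.63 to 3.39 in the other 7) and of B and plasma cell markers (5.98 and 7.86 CPM, against 3.23 to 4.27), whose part in the Ccl25 result was not tested. Ccl25 fell 1.66-fold between cancer and nivolumab, from 15.3 ± 4.08 CPM to 9.22 ± 1.32 (log2 fold change −0.73, SE 0.19, adjusted p = 0.0299), and did not pass for cancer against sham (log2 fold change 0.50, SE 0.19, adjusted p = 0.31). Its call was lost in 8 of 16 alternatives, among them the ganglion covariate (log2 fold change −0.78, adjusted p = 0.0516), leaving out cancer 2 (adjusted p = 0.102) or any 1 nivolumab library (adjusted p = 0.0535 to 0.109). The annotated model of Ccl25 overlaps Elavl1, a gene of an RNA-binding protein with a log2 fold change of −0.05, adjusted p = 0.671 in the same contrast. Ccr9 was low, with 0.329, 0.355 and 0.531 CPM in sham, 0.524, 0.381 and 0.442 in cancer and 0.346, 0.48 and 0.259 in nivolumab, and its groups overlapped (log2 fold change −0.30, SE 0.43, adjusted p = 0.653 for nivolumab against cancer).

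Sham 3 and cancer 3, which stood apart by ganglion markers, were also left out together. Without them Ccl9 kept its rise with nivolumab against cancer (adjusted p = 0.0257), and Cxcr4 (log2 fold change 0.92, adjusted p = 0.071) and Ccl25 (log2 fold change −0.67, adjusted p = 0.0684) did not pass, at folds close to those over all libraries. For nivolumab against sham Cxcr4 (adjusted p = 0.0179) and Cxcl14 (adjusted p = 0.0142) passed without them.

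Cx3cl1, made by neurons and shed from their surface, had 229, 264 and 202 CPM in sham, 254, 242 and 225 in cancer and 193, 211 and 188 in nivolumab. Each nivolumab library was below each cancer library, by 1.22-fold in the mean, and the contrast missed the threshold (log2 fold change −0.29, SE 0.10, adjusted p = 0.0661 for nivolumab against cancer). A fit with the replicate number as a block called it, as did a fit without sham 3 and cancer 3. Its receptor Cx3cr1 had 43.6, 45.2 and 16.4 CPM in sham, 33.6, 25.5 and 17.4 in cancer and 33.8, 35.3 and 28.7 in nivolumab. Sham 3 and cancer 3 were lowest, and no contrast passed (log2 fold change −0.46, SE 0.39, adjusted p = 0.679 for cancer against sham and log2 fold change 0.35, SE 0.39, adjusted p = 0.565 for nivolumab against cancer). The fit with the ganglion covariate called Cx3cr1 for nivolumab against cancer and against sham.

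The interferon-inducible ligands of Cxcr3 were low throughout the dorsal horn. Cxcl11 had 0.164, 0.158 and 0.227 CPM in sham, 0.384, 0.343 and 0.486 in cancer and 0.736, 0.651 and 0.407 in nivolumab, so that all cancer and nivolumab libraries were above all sham libraries. For nivolumab against sham it lay at the threshold without passing (log2 fold change 1.67, SE 0.45, adjusted p = 0.05001), and its model is annotated as a polymorphic pseudogene that overlaps Art3. Cxcl10 had 0.575, 0.158 and 0.379 CPM in sham, 0.14, 1.07 and 0.265 in cancer and 1.25, 0.994 and 0.851 in nivolumab, with each nivolumab library above each sham library (log2 fold change 1.47, SE 0.69, adjusted p = 0.212 for nivolumab against sham). The model of Cxcl10 overlaps Art3 as well. Cxcl9 did not pass the filter, with 0, 2 and 0 counts in sham, 5, 0 and 0 in cancer and 24, 34 and 2 in nivolumab. Its summed counts gave a ratio of 11.7 (95% counting interval 4.76 to 37.5) for nivolumab against cancer, carried by nivolumab 1 and nivolumab 2. Their receptor Cxcr3, on activated T cells, had 2, 3 and 0 counts in sham, 0 in cancer and 0, 4 and 0 in nivolumab.

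Ccl2, the ligand for inflammatory monocytes, had 0.123, 0 and 0.0758 CPM in sham, 0, 0.228 and 0.353 in cancer and 0.692, 0.446 and 0.74 in nivolumab. Each nivolumab library was above each of the others, at 5 counts in sham in all, 14 in cancer and 49 in nivolumab (log2 fold change 3.15, SE 0.97, adjusted p = 0.0746 for nivolumab against sham, not passing). Its relative Ccl12 had 0.164, 0.158 and 0 CPM in sham, 0.175, 0.495 and 0.0883 in cancer and 0.822, 0.171 and 0.555 in nivolumab (log2 fold change 2.21, SE 0.94, adjusted p = 0.172 for nivolumab against sham). Ccl7 held at most 4 counts in any library. Ccl17 and Ccl22, the ligands of Ccr4, differed from each other. Ccl17 had 0.658, 0.158 and 0.455 CPM in sham, 0.384, 1.14 and 1.81 in cancer and 0.346, 0.206 and 0.185 in nivolumab, with each nivolumab library below each cancer library (log2 fold change −2.16, SE 0.67, adjusted p = 0.0526 for nivolumab against cancer). Ccl22 had 0.986, 0.71 and 0.493 CPM in sham, 0.314, 0.647 and 0.707 in cancer and 0.995, 1.54 and 0.925 in nivolumab and differed in the opposite direction (log2 fold change 1.06, SE 0.43, adjusted p = 0.112 for nivolumab against cancer).

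Cxcr2, the main chemokine receptor of neutrophils, had 0.617, 0 and 0.986 CPM in sham, 0.279, 1.33 and 9.01 in cancer and 0.13, 0.309 and 0.407 in nivolumab. The cancer mean came from cancer 3, and neither contrast passed (log2 fold change 2.70, SE 1.32, adjusted p = 0.44 for cancer against sham, log2 fold change −3.59, SE 1.42, adjusted p = 0.119 for nivolumab against cancer). The 9 neutrophil markers in the table summed to 81, 17.2 and 132 CPM in sham, 23.5, 81.2 and 208 in cancer and 19.2, 30.2 and 53.1 in nivolumab, highest in the same library. Their part in the level of Cxcr2 was not tested. Cxcl2, a ligand of Cxcr2, had 5, 5 and 7 counts in the cancer libraries and 0 in all 6 others, at least 5.56-fold higher than in sham against a floor of 3 counts over the group, and was not tested. Cxcl1 had at most 11 counts in a library.

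The lymphoid genes were at the edge of detection in the dorsal horn. Ccl5 had 0.0411, 0 and 0.227 CPM in sham, 0.244, 0.343 and 0.397 in cancer and 0.173, 0.206 and 0.148 in nivolumab, from 1 to 9 counts where not 0. Ccr7 held 0, 8 and 28 counts in cancer, 6 in sham 3 and 3 in nivolumab 3, and its ligand Ccl19 had 0 to 12. Cxcr5 held 0, 14 and 5 counts in cancer and 3 each in sham 3 and nivolumab 3, and Ccr6 held 2, 15 and 0 in cancer and 2 in sham 3. Cxcr6 held 5 and 4 counts in sham 1 and cancer 1 alone. Xcr1 had no count in any dorsal horn library. Cxcl16, the ligand of Cxcr6, had 2.01, 3.04 and 2.16 CPM in sham, 2.23, 1.98 and 1.85 in cancer and 3.33, 3.81 and 2.0 in nivolumab (log2 fold change 0.59, SE 0.29, adjusted p = 0.178 for nivolumab against cancer). Ccl28 had 2.3, 1.81 and 2.96 CPM in sham, 0.768, 1.71 and 1.32 in cancer and 2.55, 2.16 and 1.59 in nivolumab, lower in each cancer library than in each sham library (log2 fold change −0.90, SE 0.35, adjusted p = 0.313 for cancer against sham). Its receptor Ccr10 had 2.01, 1.38 and 1.18 CPM in sham, 0.803, 1.52 and 1.1 in cancer and 1.47, 1.58 and 1.55 in nivolumab (log2 fold change −0.41, SE 0.33, adjusted p = 0.635 for cancer against sham) and overlaps the abundant neuronal gene Cntnap1.

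In the colon 44 of 50 genes (27 ligands and 17 receptors) could be tested, and none passed in any contrast. For nivolumab against sham the largest log2 fold changes were those of the neutrophil axis, Cxcr2 (6.54) and its ligands Cxcl3, Cxcl2 and Cxcl1, in libraries that also held more neutrophil markers. Ccl6, Ccl12 and Ccr10 were lower in cancer than in sham in every library. Cx3cl1 was higher in every nivolumab library than in every cancer library. The spread between libraries was larger than in the dorsal horn, with a biological coefficient of variation of 0.376 against 0.170.

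For cancer against sham edgeR called 0 of 44 genes (0.0% of 13445 genes), and 8 were at an unadjusted p under 0.05 (18.2% against 10.9%). The groups did not overlap for 8 (18.2% against 19.3%). DESeq2 called 3, Cxcl1 and Cxcr2 higher and Ccl12 lower (2.86% of all genes). For nivolumab against cancer edgeR called 0 (0.0%), with 3 at an unadjusted p under 0.05 (6.82% against 9.84%) and 6 without overlap (13.6% against 15.2%), and DESeq2 called 0 (1.38% of all genes). For nivolumab against sham edgeR called 0 (0.0%), with 8 at an unadjusted p under 0.05 (18.2% against 6.45%), and DESeq2 called 4 of 44, Cxcl1, Cxcl2, Cxcl3 and Cxcr2, all higher (1.07% of all genes). The nivolumab and sham libraries did not overlap for 13 of 44 (29.5% against 14.9%), 7 higher (8.81% of all genes) and 6 lower (6.11%). The joint test of edgeR called 0 of 44 (0.0149% of all genes), with 9 at an unadjusted p under 0.05 (20.5% against 9.68%), and DESeq2 called 5 (3.45%).

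Median log2 fold changes of the 44 genes were −0.13 for cancer against sham, 0.21 for nivolumab against cancer and −0.02 for nivolumab against sham, against 0.00, 0.03 and 0.03 over all genes.

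Cxcr2 had 0.0633, 0 and 0 CPM in sham, 0.949, 1.91 and 0.199 in cancer and 1.6, 0.437 and 5.56 in nivolumab. Each cancer and nivolumab library was above each sham library, and nivolumab 3 was the highest. Sham held 2 counts in all, so the ratio of summed counts was 45.8 (95% counting interval 12.2 to 386) for cancer and 112 (95% counting interval 30.7 to 934) for nivolumab, both against sham. The edgeR tests did not pass (adjusted p = 0.294 and 0.417), and those of DESeq2 did (adjusted p = 0.021 and 0.00243).

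Its ligand Cxcl2 had 0.918, 0.318 and 0.701 CPM in sham, 5.31, 7.09 and 0.497 in cancer and 11, 6.52 and 27.2 in nivolumab, each nivolumab library above each sham library (log2 fold change 4.51, SE 0.99, adjusted p = 0.376 for nivolumab against sham and log2 fold change 2.72, SE 0.93, adjusted p = 0.357 for cancer against sham). Cancer 3 was within the range of sham. Cxcl1 had 1.42, 1.23 and 0.30 CPM in sham, 8.03, 6.44 and 0.944 in cancer and 9.19, 11.5 and 8.14 in nivolumab (log2 fold change 3.28, SE 0.81, adjusted p = 0.472 for nivolumab against sham and log2 fold change 2.38, SE 0.79, adjusted p = 0.351 for cancer against sham), again with cancer 3 near sham. Cxcl3 had 0.443, 0.119 and 0.0667 CPM in sham, 1.51, 0.957 and 0.249 in cancer and 2.85, 1.81 and 11.6 in nivolumab (log2 fold change 4.64, SE 1.08, adjusted p = 0.417 for nivolumab against sham and log2 fold change 2.57, SE 0.96, adjusted p = 0.492 for nivolumab against cancer). All 3 ligands, which lie together on chromosome 5 (Cxcl3 at 90786103 to 90789600, Cxcl1 at 90891241 to 90893115 and Cxcl2 at 90903871 to 90905938), were in the same order of groups by their means.

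Neutrophil markers, like the means of these 4 genes, were lowest in sham and highest with nivolumab. The 8 markers in the colon table (Ly6g and Elane were not analysed here) summed to 7.79, 6.07 and 5.11 CPM in sham, 28.9, 108 and 8.35 in cancer and 131, 34.7 and 181 in nivolumab, and cancer 3 was the lowest of the latter 6. S100a8 had 0.412, 0 and 0, 3.5, 15.4 and 1.54 and 32.9, 4.47 and 40.4 CPM in the same groups. Within cancer and within nivolumab, Cxcr2 and Cxcl2 followed the order of the marker sums, as Cxcl3 did within nivolumab. Within sham Cxcl1 and Cxcl3 followed that order and Cxcl2 did not. The order differed for Cxcl1 within cancer and nivolumab and for Cxcl3 within cancer. Cxcl1 was highest in nivolumab 2, which had the lowest marker sum of its group. Cxcl1 and Cxcl3 were higher in cancer 1 than in cancer 2, which had the higher marker sum. The part of neutrophil number in the levels of Cxcr2 and its ligands was not tested. The receptor Cxcr1 had 2 counts in sham 3, 3 in cancer 2 and 0 in the other colon libraries.

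**Figure D4:**
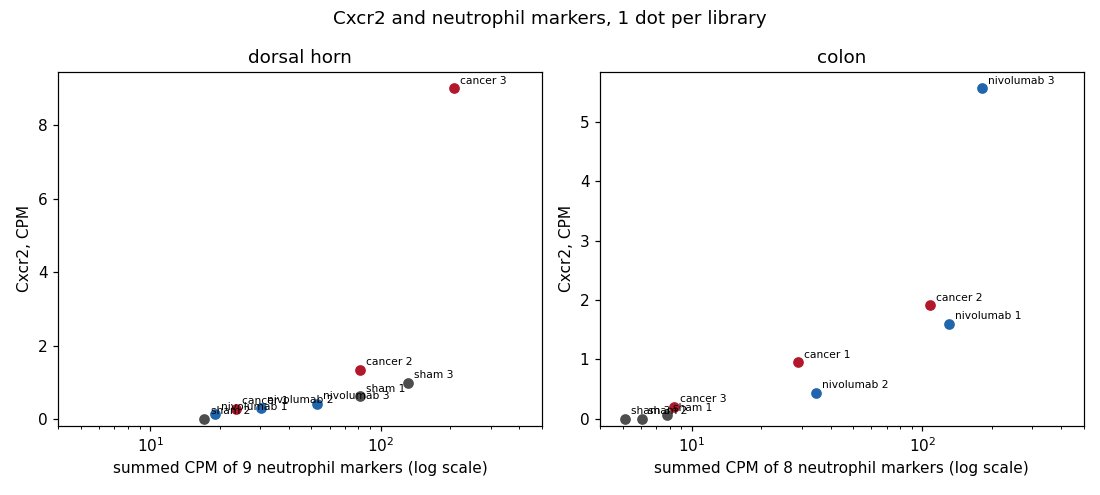
Cxcr2 in CPM (y axis) against the summed CPM of neutrophil markers (x axis, log scale) in each dorsal horn library (left, 9 markers) and colon library (right, 8 markers), 1 dot per library. Cxcr2 and the markers are both highest in cancer 3 of the dorsal horn and in nivolumab 3 of the colon.

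The myeloid ligand Ccl6 had 348, 331 and 253 CPM in sham, 242, 126 and 109.9 in cancer and 216, 194 and 142 in nivolumab, each sham library above each of the others (log2 fold change −0.97, SE 0.31, adjusted p = 0.335 for cancer and log2 fold change −0.76, SE 0.31, adjusted p = 0.75 for nivolumab). Ccl9, its neighbour, had 33.3, 25.6 and 43.3 CPM in sham, 33.5, 32.5 and 36.1 in cancer and 47.1, 43.4 and 43.7 in nivolumab, with each nivolumab library above each of the others (log2 fold change 0.39, SE 0.19, adjusted p = 0.523 for nivolumab against cancer). Ccl12, a monocyte ligand, had 2.28, 3.53 and 2.5 CPM in sham, 0.604, 0.914 and 0.696 in cancer and 1.12, 1.68 and 2.14 in nivolumab, so that the 3 groups did not overlap, with sham highest and cancer lowest (log2 fold change −1.90, SE 0.45, adjusted p = 0.231 for cancer against sham and log2 fold change 1.16, SE 0.44, adjusted p = 0.492 for nivolumab against cancer). DESeq2 called Ccl12 for cancer against sham (adjusted p = 0.00394). Ccl2 had 1.49, 2.7 and 2.0 CPM in sham, 1.94, 7.01 and 0.298 in cancer and 3.89, 8.77 and 7.0 in nivolumab, each nivolumab library above each sham library (log2 fold change 1.67, SE 0.88, adjusted p = 0.823 for nivolumab against sham). Macrophage markers summed to 329.9, 343 and 302 CPM in sham, 313, 386 and 89.9 in cancer and 377, 217 and 339 in nivolumab, and their part was not tested. Ccr1 had 8.99, 6.79 and 10.9 CPM in sham, 11.3, 14.7 and 2.58 in cancer and 10.1, 7.49 and 17.4 in nivolumab (log2 fold change 0.09, SE 0.58, adjusted p = 0.955 for cancer against sham), lowest in cancer 3.

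Ccr10, which plasma cells carry to mucosa, had 3.48, 4.09 and 2.8 CPM in sham, 1.51, 1.39 and 1.69 in cancer and 1.0, 1.75 and 2.45 in nivolumab, each sham library above each of the others (log2 fold change −1.17, SE 0.43, adjusted p = 0.379 for cancer and log2 fold change −0.99, SE 0.43, adjusted p = 0.764 for nivolumab). Its epithelial ligand Ccl28 had 143, 130.4 and 149.9 CPM in sham, 115, 57.9 and 137 in cancer and 107, 149 and 152 in nivolumab and overlapped between groups (log2 fold change −0.45, SE 0.29, adjusted p = 0.579 for cancer against sham). The 7 B and plasma cell markers summed to 971, 1248 and 1068 CPM in sham, 312, 182 and 129.8 in cancer and 235, 243 and 368 in nivolumab, with all sham libraries above the others. Their part in the level of Ccr10 was not tested. Ccl25 had 12.6, 9.61 and 12.5 CPM in sham, 9.19, 9.75 and 12.8 in cancer and 12.2, 13.5 and 11.3 in nivolumab, with overlapping groups (log2 fold change 0.22, SE 0.23, adjusted p = 0.705 for nivolumab against cancer). Its receptor Ccr9 had 2.03, 1.03 and 1.1 CPM in sham, 1.77, 1.04 and 0.845 in cancer and 2.73, 0.605 and 2.88 in nivolumab and overlapped likewise (log2 fold change 0.76, SE 0.65, adjusted p = 0.651 for nivolumab against cancer).

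Cxcl13, the B cell attractant of lymphoid follicles, had 10.9, 15.1 and 5.24 CPM in sham, 47, 37.4 and 13.5 in cancer and 33.7, 12.8 and 41.3 in nivolumab (log2 fold change 1.65, SE 0.59, adjusted p = 0.367 for cancer and log2 fold change 1.49, SE 0.59, adjusted p = 0.742 for nivolumab). Cancer 3 and nivolumab 2 were within the range of sham. Its receptor Cxcr5 had 4.4, 6.43 and 1.23 CPM in sham, 4.06, 0.827 and 2.88 in cancer and 0.522, 5.54 and 5.5 in nivolumab and ranged as widely within groups as between them (log2 fold change −0.63, SE 0.92, adjusted p = 0.787 for cancer against sham). Ccr7, which brings cells to lymph nodes, had 1.49, 3.37 and 1.0 CPM in sham, 8.16, 4.83 and 1.39 in cancer and 3.29, 2.89 and 6.2 in nivolumab (log2 fold change 1.30, SE 0.70, adjusted p = 0.534 for cancer against sham). Its ligand Ccl19 had 1.01, 1.51 and 0.434 CPM in sham, 4.66, 1.04 and 1.54 in cancer and 0.201, 1.68 and 1.91 in nivolumab (log2 fold change 1.30, SE 0.89, adjusted p = 0.596 for cancer against sham). Cancer 1 was the highest library for both. Ccr6, on B cells and some T cells, had 1.77, 3.1 and 0.567 CPM in sham, 2.37, 0.348 and 1.64 in cancer and 0.16, 1.78 and 3.02 in nivolumab (log2 fold change −0.31, SE 1.02, adjusted p = 0.912 for cancer against sham). Its ligand Ccl20, an epithelial product, had 3.99, 3.02 and 0.768 CPM in sham, 2.07, 1.91 and 0.944 in cancer and 0.843, 2.72 and 0.804 in nivolumab (log2 fold change −0.65, SE 0.73, adjusted p = 0.716 for cancer against sham). No group stood apart for either.

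Cx3cl1 had 102, 82.3 and 98.7 CPM in sham, 73.8, 62.4 and 80.8 in cancer and 141, 106 and 103 in nivolumab in the colon. The cancer libraries were the lowest and the nivolumab libraries the highest, with no overlap among the 3 groups, and it had the smallest p of these genes for nivolumab against cancer (log2 fold change 0.69, SE 0.17, adjusted p = 0.372). Cx3cr1, on resident macrophages of the gut, had 12.9, 9.37 and 8.64 CPM in sham, 6.6, 6.18 and 2.34 in cancer and 9.71, 5.11 and 9.55 in nivolumab, each cancer library below each sham library (log2 fold change −1.03, SE 0.44, adjusted p = 0.451 for cancer against sham). Cxcl12 had 69.5, 73.9 and 54.4 CPM in sham, 51.4, 79.2 and 19.7 in cancer and 54.2, 35 and 57.2 in nivolumab (log2 fold change −0.39, SE 0.43, adjusted p = 0.708 for cancer against sham). Ackr3 had 14.2, 16 and 12.5 CPM in sham, 11, 16.1 and 2.39 in cancer and 9.19, 6.65 and 14.4 in nivolumab (log2 fold change −0.53, SE 0.58, adjusted p = 0.709 for cancer against sham). Cxcr4 had 9.72, 11.9 and 4.77 CPM in sham, 12, 12.2 and 5.67 in cancer and 7.58, 5.44 and 10.6 in nivolumab (log2 fold change 0.18, SE 0.45, adjusted p = 0.883 for cancer against sham). The groups overlapped for all 3 genes of this axis, and Cxcl12 and Ackr3 were lowest in cancer 3. Cxcl14 had 57.6, 52.6 and 8.31 CPM in sham, 14.1, 14.8 and 43.9 in cancer and 9.15, 5.88 and 12.4 in nivolumab, each nivolumab library below each cancer library (log2 fold change −2.11, SE 0.72, adjusted p = 0.675 against sham). Sham 3 was low in its group and cancer 3 high in its own. The 4 smooth muscle markers summed to 4917, 13689 and 777 CPM in sham and 4398, 7679 and 16232 in cancer. With nivolumab they summed to 2801, 1804 and 1675 CPM, again below each cancer library. Their part in the Cxcl14 level was not tested.

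The interferon-inducible ligands were abundant in the colon, with overlapping groups. Cxcl9 had 39.7, 25.8 and 45 CPM in sham, 37.2, 24.9 and 23 in cancer and 26.4, 29.9 and 45 in nivolumab (log2 fold change 0.25, SE 0.29, adjusted p = 0.726 for nivolumab against cancer). Cxcl10 had 14.4, 9.45 and 18.7 CPM in sham, 17.1, 14.1 and 7.66 in cancer and 15.7, 22.2 and 19.4 in nivolumab (log2 fold change 0.56, SE 0.35, adjusted p = 0.585 for nivolumab against cancer). Both ligands were lowest in cancer 3. Their receptor Cxcr3 had 2.47, 2.1 and 1.64 CPM in sham, 3.37, 2.83 and 1.14 in cancer and 2.29, 1.14 and 2.65 in nivolumab (log2 fold change −0.27, SE 0.52, adjusted p = 0.832 for nivolumab against cancer). Ccl5 had 21.7, 11.8 and 4.07 CPM in sham, 17.3, 45 and 11 in cancer and 38.6, 5.0 and 13.6 in nivolumab (log2 fold change −0.36, SE 0.83, adjusted p = 0.864 for nivolumab against cancer), with a wide spread in every group. Cxcl16, on macrophages, had 35.2, 29.4 and 25.4 CPM in sham, 31.2, 57.1 and 17.7 in cancer and 38.5, 29.8 and 30.00 in nivolumab (log2 fold change −0.11, SE 0.37, adjusted p = 0.912 for nivolumab against cancer). Its receptor Cxcr6, on resident T cells, had 2.88, 1.71 and 1.7 CPM in sham, 3.63, 7.83 and 1.74 in cancer and 2.65, 1.61 and 3.59 in nivolumab (log2 fold change −0.75, SE 0.59, adjusted p = 0.637 for nivolumab against cancer). Both were highest in cancer 2.

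The eosinophil ligand Ccl11 did not pass in either tissue, and Ccl24 did not pass in the colon and was not tested in the dorsal horn, where it held 0 to 8 counts. In the dorsal horn Ccl11 had 0.247, 0.513 and 0.796 CPM in sham, 0.384, 0.304 and 0.707 in cancer and 1.69, 0.583 and 1.15 in nivolumab (log2 fold change 1.29, SE 0.55, adjusted p = 0.131 for nivolumab against cancer). In the colon it had 12.3, 12.8 and 15.4 CPM in sham, 9.71, 12.2 and 2.54 in cancer and 11.1, 6.48 and 9.45 in nivolumab, each sham library above each of the others (log2 fold change −0.72, SE 0.50, adjusted p = 0.599 for cancer and log2 fold change −0.58, SE 0.50, adjusted p = 0.925 for nivolumab). Colon Ccl24 had 0.507, 0.635 and 1.03 CPM in sham, 0, 0.174 and 0 in cancer and 0.0802, 0 and 1.11 in nivolumab, each cancer library below each sham library (log2 fold change −3.51, SE 1.63, adjusted p = 0.482 for cancer against sham). Their receptor Ccr3 had 0, 0 and 0 counts in the sham colon, 4, 2 and 0 in cancer and 0, 0 and 6 in nivolumab.

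The atypical receptor Ackr4 did not pass in either tissue, nor did Ackr2 in the colon. Colon Ackr4, which removes Ccl19 and Ccl25, had 11.6, 13.4 and 3.77 CPM in sham, 5.01, 14.2 and 6.16 in cancer and 9.95, 3.46 and 3.08 in nivolumab (log2 fold change −0.18, SE 0.65, adjusted p = 0.919 for cancer against sham). Colon Ackr2, which removes inflammatory CC chemokines, had 2.47, 2.54 and 2.7 CPM in sham, 2.24, 4.79 and 1.14 in cancer and 1.85, 1.01 and 1.91 in nivolumab, each sham library above each nivolumab library (log2 fold change −0.69, SE 0.55, adjusted p = 0.918 for nivolumab against sham). Cancer 2 was the highest library for both. In the dorsal horn Ackr4 had 0.781, 1.03 and 0.607 CPM in sham, 0.594, 0.799 and 1.37 in cancer and 1.34, 0.788 and 0.74 in nivolumab (log2 fold change 0.06, SE 0.42, adjusted p = 0.935 for nivolumab against cancer). Ackr2 was not tested there, at 0, 0.237 and 0.19 CPM in sham, 0.698, 0.381 and 0 in cancer and 0.173, 0.274 and 0.222 in nivolumab.

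In the colon the dendritic cell receptor Xcr1 had 1.55, 1.39 and 1.5 CPM in sham, 2.24, 2.92 and 0.497 in cancer and 0.441, 0.638 and 1.24 in nivolumab, each sham library above each nivolumab library (log2 fold change −0.93, SE 0.67, adjusted p = 0.90 for nivolumab against sham). Its ligand Xcl1, a product of NK and CD8+ T cells, had 2.09, 0.476 and 1.4 CPM in sham, 0.345, 0.827 and 0.398 in cancer and 1.6, 0.369 and 1.21 in nivolumab (log2 fold change −0.33, SE 0.72, adjusted p = 0.994 for nivolumab against sham), and its groups overlapped. Ccl3, a ligand of Ccr1, had 0.57, 0.635 and 0.834 CPM in sham, 0.216, 2.57 and 0.149 in cancer and 1.93, 0.739 and 7.21 in nivolumab (log2 fold change 2.27, SE 1.15, adjusted p = 0.811 for nivolumab against sham). Ccl4, its close relative, had 1.55, 0.437 and 0.868 CPM in sham, 1.04, 2.52 and 0.199 in cancer and 1.93, 0.84 and 7.64 in nivolumab (log2 fold change 1.86, SE 1.02, adjusted p = 0.835 for nivolumab against sham). The groups overlapped for both, and nivolumab 3 was the highest library of each. In the dorsal horn Ccl3 held 4, 5 and 3 counts in sham, 3, 2 and 5 in cancer and 0, 7 and 7 in nivolumab, and was not tested. Colon Ccl22 had 2.79, 2.34 and 1.2 CPM in sham, 4.79, 2.87 and 1.34 in cancer and 3.53, 2.42 and 3.65 in nivolumab (log2 fold change 0.60, SE 0.54, adjusted p = 0.93 for nivolumab against sham). Its receptor Ccr4 had 1.17, 0.714 and 1.07 CPM in sham, 0.777, 0.087 and 0.646 in cancer and 0.241, 0.504 and 1.78 in nivolumab (log2 fold change 0.74, SE 0.89, adjusted p = 0.734 for nivolumab against cancer).

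**Figure D5:**
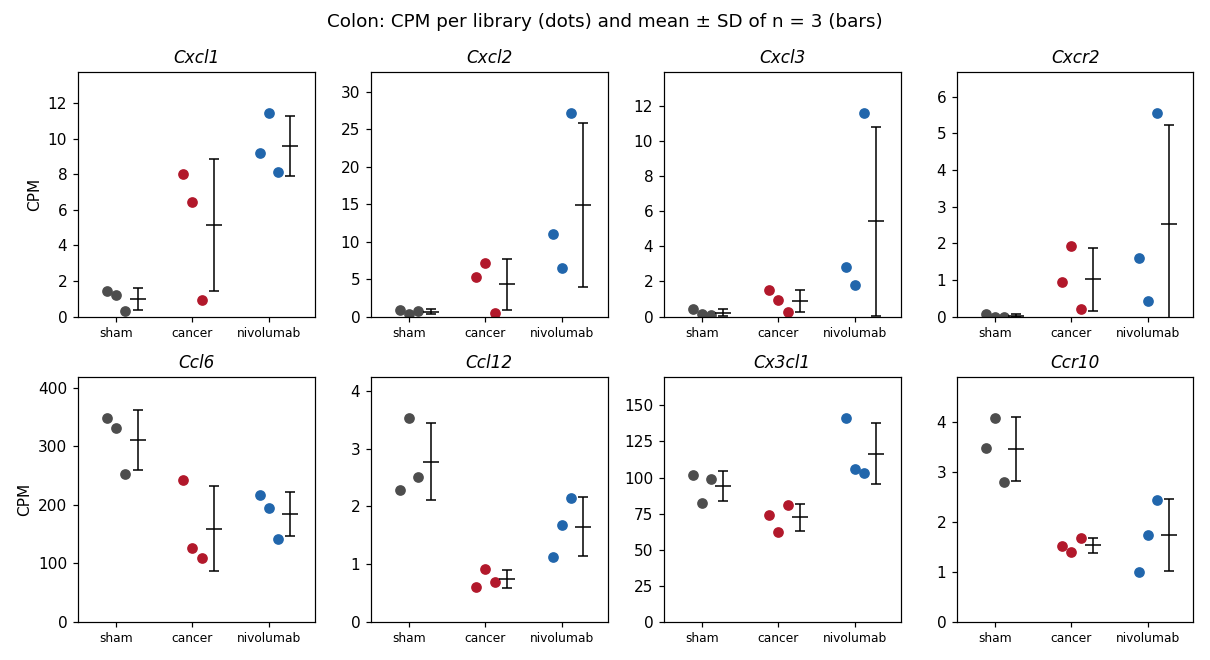
CPM of 8 genes in each colon library (dots, 3 per group) with the mean ± SD (bars, n = 3). Cxcl1, Cxcl2, Cxcl3 and Cxcr2 are lowest in sham and in cancer 3, Ccl6, Ccl12 and Ccr10 are highest in sham, and Cx3cl1 is highest with nivolumab.

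Whether the tissues responded differently was tested by an interaction in the fit of 18 libraries. For the cancer response 0 of 42 genes passed in edgeR (0.155% of 14164 genes), with 3 at an unadjusted p under 0.05 (7.14% against 10.9%), and DESeq2 called 1, Ccl9 (2.34%). Ccl9 differed by −1.47, SE 0.38, adjusted p = 0.156 (log2, dorsal horn minus colon). For the nivolumab response, against cancer, 0 of 42 passed in edgeR (0.127%), with 9 at an unadjusted p under 0.05 (21.4% against 16.4%), and DESeq2 called 4, Ccl9, Cx3cl1, Cxcl2 and Cxcl9 (5.27%). Cx3cl1 had the smallest p, with a difference of −0.92, SE 0.22, adjusted p = 0.0806, lower with nivolumab in the dorsal horn (−0.29) and higher in the colon (0.69), and passed in edgeR only where colon sham 2 was left out (adjusted p = 0.046). Ccl9 differed by 1.25, SE 0.38, adjusted p = 0.134. Cxcl2 had 0 counts in the dorsal horn with nivolumab, so the size of its difference between tissues was not measured.

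Genes that carry or regulate the signal below the receptors were followed as a list of 35 symbols. Of these, 31 were tested in the dorsal horn and 32 in the colon. The symbols Adrbk1 and Adrbk2, absent from both tissues, are older names of Grk2 and Grk3, which are also listed. None passed for cancer against sham in the dorsal horn, or in any colon contrast. For nivolumab against cancer in the dorsal horn 8 rose and 2 fell, against 8.63% and 8.6% of all genes, with a median log2 fold change of 0.09. The 8 were the G protein subunits Gnai3 (0.33, adjusted p = 0.0221) and Gng2, the kinase subunit Pik3cd, the phospholipase Plcb3, the GTPases Rac1, Rhoa and Cdc42 (0.32, adjusted p = 0.00744) and the transcription factor Stat3 (0.55, adjusted p = 0.0208). The 2 that fell were Grk3, a kinase that silences active receptors (−0.47, adjusted p = 0.00604), and Jak3 (−0.65, adjusted p = 0.0359). Plcb3 had 34.4, 33 and 79.4 CPM in sham, 34.6, 28.4 and 68.7 in cancer and 210.2, 132 and 232 in nivolumab (log2 fold change 2.13, SE 0.50, adjusted p = 0.0309), highest in the libraries with ganglion markers, whose part in these results was not tested. For nivolumab against sham Gnai3, Gnb1, Gng2 and Stat3 rose and Elmo1 fell (−0.41, adjusted p = 0.013), 4 and 1 of 31 genes, against 4.67% and 3.84% of all genes.

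A further list held 10 genes related to chemokines whose names fall outside the pattern, 9 of them tested in each tissue. Rarres2, the precursor of the leukocyte attractant chemerin, had 16.6, 16.2 and 14.6 CPM in sham, 9.29, 10.6 and 9.72 in cancer and 16.1, 15.8 and 17.5 in nivolumab in the dorsal horn. All 3 cancer libraries were below all 6 others, as for Ccl9 and the summed oligodendrocyte markers (24565 to 35048 CPM in cancer, against 42312 to 55674), whose part was not tested. Rarres2 fell between sham and cancer (log2 fold change −0.68, SE 0.10, adjusted p = 0.0324) and rose between cancer and nivolumab (log2 fold change 0.74, SE 0.10, adjusted p = 0.00289). Cd74, the invariant chain and receptor of the cytokine Mif, had 1.64, 4.65 and 2.77 CPM in sham, 5.76, 9.48 and 5.03 in cancer and 19, 20.3 and 15 in nivolumab, and rose against cancer (log2 fold change 1.42, SE 0.35, adjusted p = 0.0281) and against sham (log2 fold change 2.58, SE 0.37, adjusted p = 0.0087). Mif itself fell slightly between cancer and nivolumab (log2 fold change −0.24, SE 0.06, adjusted p = 0.0322). None of the 9 passed in the colon.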

How the data were processed

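RNA-seq of total RNA from 9 dorsal horn and 9 colon libraries was deposited by the authors as raw counts per gene symbol, in 1 table per tissue. Per the submitters' processing notes, FastQC, Trimmomatic, HISAT2 and StringTie were used with GRCm38. The sources used here do not name the counting tool, its strand setting or the annotation.

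Each tissue was fitted in edgeR 4.0.16 (R 4.3.3) over its 3 groups, after filterByExpr and TMM scaling, with the quasi-likelihood test and Benjamini-Hochberg adjustment over 13609 genes in the dorsal horn and 13445 in the colon. Tissues were compared in 1 fit of 18 libraries over 14164 genes. CPM values use TMM-scaled totals. Totals were 21855085 to 29071908 counts in the dorsal horn and 20896854 to 30803957 in the colon. Ratios of summed counts have exact 95% binomial intervals, which cover counting error only. Lengths and coordinates are from GENCODE M21 and promoters from RefSeq on GRCm38.p6.

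Named were the genes past the threshold, the 3 of smallest p in each contrast, the 5 ligands and 5 receptors of highest level per kilobase, and set ligand and receptor pairs. The other genes described were added after their values were seen. For 1 gene of the pattern, values are not reported here, though the counts and medians include it. The genes and lists were chosen with earlier results of these data known. The fits were tested on simulated data, with changes set between cancer and sham. In the dorsal horn 78.2% of genes changed by a log2 of 1 were recovered, and 99.0% of those changed by 2. In the colon these shares were 18% and 76%, so most changes of the smaller size were missed there. The libraries carry replicate numbers. In the dorsal horn the deviations of same-numbered cancer and nivolumab libraries from their group means had correlations of 0.137, 0.323 and 0.257. Libraries of different number were not compared in this way. The alternatives were DESeq2 1.42.0, its size factors, no filter, the replicate number as a block, only the 2 groups compared, a ganglion marker score as covariate, leaving out sham 3 and cancer 3, and leaving out each library.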

Additional observations from a re-analysis of the deposited data

How the results depend on the processing

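Counts of chemokine genes called in the dorsal horn moved with the setting. DESeq2 called 1 gene for cancer against sham and 6 for nivolumab against cancer, where edgeR called 0 and 3. With the ganglion marker score as a covariate the counts were 1 for cancer against sham, 7 for nivolumab against cancer, 4 for nivolumab against sham and 7 in the joint test, and without sham 3 and cancer 3 together the joint test called 5 (2398 of all 13664 genes). In the colon DESeq2 called 3 genes for cancer against sham, 4 for nivolumab against sham and 5 in the joint test, where edgeR called 0. DESeq2 also called 1 gene for the difference between tissues in the cancer response and 4 for that in the nivolumab response. The cause of these differences was not tested.

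Leaving out 1 library at a time gave 0 to 0 genes for cancer against sham in the dorsal horn, 1 to 5 for nivolumab against cancer, 0 to 3 for nivolumab against sham and 1 to 7 in the joint test. Over all genes the same fits called 2 to 125, 771 to 2717, 95 to 1237 and 452 to 2214. For nivolumab against cancer the count was 5 without sham 2 or cancer 1, and 1 where cancer 2, cancer 3 or a nivolumab library was left out. For nivolumab against sham it was 0 without nivolumab 1 and 1 without sham 1 or nivolumab 3. The joint test called 7 without cancer 1 and 1 without sham 1 or any nivolumab library. In the colon every such count was 0, and for the nivolumab response between tissues it ranged from 0 to 1. The count between sham tissues stayed between 30 and 37 in all 22 alternatives. The log2 fold changes of the called genes and of the 3 of smallest p in each contrast of groups kept their sign in the alternatives run, and those of the other genes named were not compared across them.

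A fit with the replicate number as a block called 0, 4 and 2 genes in the 3 dorsal horn contrasts in the order above and 4 in the joint test (115, 3066, 1685 and 2619 of all 13609 genes, against 44, 2345, 1158 and 1889 without it). It called 0 in each colon contrast and 30 between the sham tissues. The block ended no call of Ccl9, Ccl25, Cxcr4 or Cxcl14 and added Cx3cl1 for nivolumab against cancer. Same-numbered libraries did not all deviate together for sham in the dorsal horn (correlations −0.128 to 0.653) or in the colon (−0.506 to 0.503). The fit of only 2 groups gave no value for colon Cxcr2 in cancer against sham. In the dorsal horn 24 of 48 genes did not pass the filter on low counts and were not tested.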
